A study of Mus musculus with 3 samples.

Results

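The MS4A genes described here are Ms4a1, Ms4a2, Ms4a3, Ms4a4b, Ms4a4c, Ms4a6b, Ms4a6c, Ms4a6d and Ms4a7, 9 of the 24437 genes in the deposited tables. They were taken by gene symbol, and all 9 were found in each table at 1 locus per table. RNA sequencing covered 3 leukaemias that arose in the thymus of Mb1-CreDPB mice (C57BL/6 strain), with 1 library for each. By the design of this model, which all 3 share, the mice carry a disrupted Spib (Spi-B), and Spi1, the gene of the related transcription factor PU.1, is deleted in B lineage cells by Cre driven from mb-1 (Cd79a). FPKM of Spib was 11.8, 14.6 and 9.60 and that of Spi1 11.6, 6.70 and 7.13 in the 3 libraries, so neither gene was at 0. FPKM covers the whole gene and does not check the loss of a part of it. They form 1 group, no control was analysed here, and Thy_853, Thy_854 and Thy_857 are called leukaemias 1, 2 and 3. The labels number each thymus but do not say in words that each came from its own mouse, so every ± below is an SD over these 3 libraries, which may be partly technical. The ages of the mice were not given in the sources used here. RNA came from whole homogenised thymuses after red cell lysis, so other cells of the thymus could contribute, and fewer cells of a type cannot be told apart from less RNA per cell.

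MS4A proteins cross the membrane several times and sit at the cell surface or in internal membranes, where several act beside immune receptors. The best known is CD20, the product of Ms4a1, a B cell surface protein that associates with the B cell receptor, appears as B cell precursors mature and is the target of antibodies used against B cell leukaemia and lymphoma. Other members mark other blood cells. Ms4a2 encodes the beta chain of the high affinity IgE receptor of mast cells and basophils, Ms4a3 a cell cycle regulator (HTm4) of granulocyte and monocyte precursors, and Ms4a4b and Ms4a6b encode T cell proteins. Ms4a4c is found in T and myeloid cells, and Ms4a6c, Ms4a6d and Ms4a7 are known mainly from monocytes and macrophages.

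The 9 genes lie in 1 cluster on mouse chromosome 19, from 11250603 to 11640851 in mm10, a span of 390.2 kb. Ms4a1, on the minus strand at 11250603 to 11266151, is at its lower end, and Ms4a2 (11615521 to 11623719) and Ms4a3 (11629499 to 11640851) are at its upper end. Ms4a4c (11407661 to 11427246), Ms4a4b (11443558 to 11463548), Ms4a6c (11469368 to 11482196) and Ms4a6b (11518559 to 11530403) form a block on the plus strand between them. Ms4a7 (11321039 to 11336146) and Ms4a6d (11586606 to 11604804) flank this block on the minus strand. The symbols Ms4a1 and Ms4a2 have each been used for the other gene, and the positions identify the row Ms4a1 as the CD20 gene.

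The family was led by the T cell gene Ms4a4b in each leukaemia, and CD20 had the widest spread on the log scale (SD of log2(FPKM + 1) 1.61). Levels are FPKM, fragments divided by transcript length and by the size of the library, so that they can be ordered between genes. Given here as means of the 3 leukaemias, they were 33.9 ± 29.0 FPKM for Ms4a4b, 12.6 ± 12.0 for Ms4a6b and 9.10 ± 7.71 for Ms4a1. The monocyte and macrophage genes Ms4a6c, Ms4a7 and Ms4a6d followed at 3.30 ± 2.44, 2.95 ± 0.554 and 2.15 ± 1.22 FPKM, with Ms4a4c at 2.76 ± 2.46. These 7 genes reached an FPKM of 1 in every leukaemia, whereas Ms4a3 and Ms4a2 did in none. That level was reached by 40.9%, 40.1% and 39.7% of all genes in leukaemias 1, 2 and 3. Summed over the 9 genes, FPKM came to 113, 39.7 and 47.7.

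**Figure D1:**
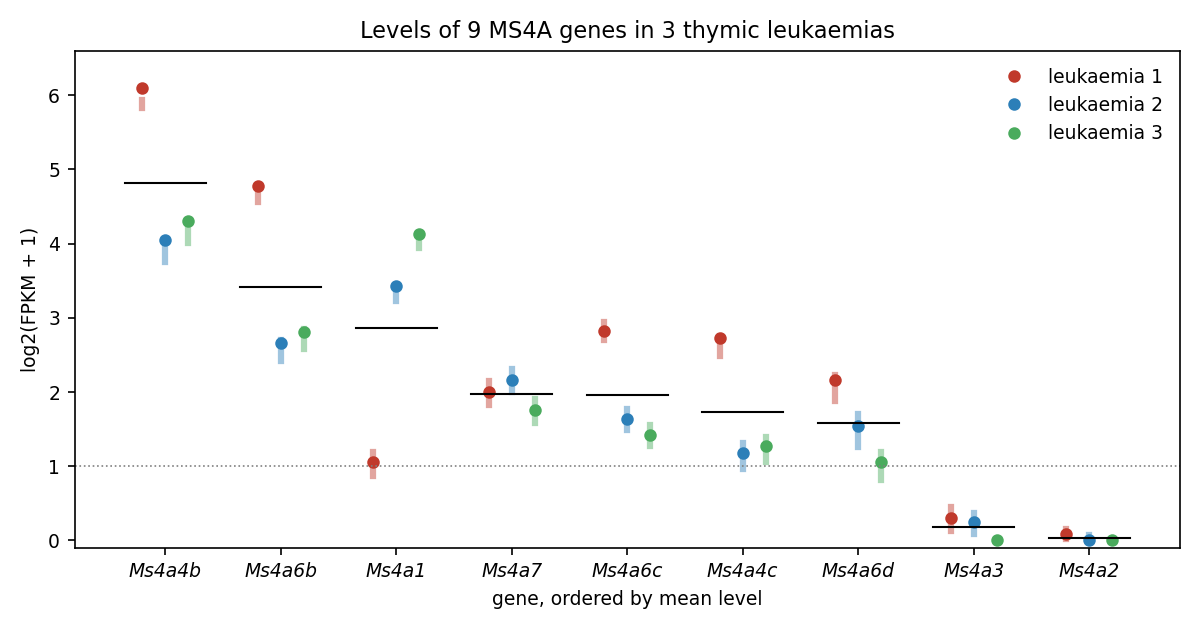
Levels of the 9 MS4A genes, ordered by mean level, on the log2(FPKM + 1) scale. Points are the 3 leukaemias, shaded bars the deposited 95% intervals, black lines the means and the dotted line an FPKM of 1; Ms4a1 is lowest in leukaemia 1 and Ms4a4b, Ms4a6b, Ms4a6c and Ms4a4c are highest there.

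Ordered by mean log2(FPKM + 1), the sequence was Ms4a4b, Ms4a6b, Ms4a1, Ms4a7, Ms4a6c, Ms4a4c, Ms4a6d, Ms4a3 and Ms4a2. Of the 8 pairs of neighbours, 3 differed in the same direction in every leukaemia by a mean larger than its SD. Ms4a4b exceeded Ms4a6b by 1.40 ± 0.09, Ms4a6c exceeded Ms4a4c by 0.24 ± 0.19, and Ms4a6d exceeded Ms4a3 by 1.40 ± 0.41. Ms4a3 exceeded Ms4a2 by 0.15 ± 0.13, but both were listed at 0 in leukaemia 3. The other 4 pairs of neighbours did not differ beyond their spread. Ms4a4b held the first place in each leukaemia, while Ms4a1 was at place 7 of the 9 genes in leukaemia 1 and at place 2 in leukaemias 2 and 3.

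CD20 transcripts were scarce in leukaemia 1. Ms4a1 stood at 1.07 FPKM there (deposited interval 0.831 to 1.29), at 9.76 in leukaemia 2 (8.38 to 9.82) and at 16.5 in leukaemia 3 (14.4 to 16.2, so that the value lies above its own upper bound). The 3 intervals did not overlap. The level in leukaemia 2 was 9.10 times that in leukaemia 1, and the ratios that the interval bounds allow run from 6.48 to 11.8. In leukaemia 3 it was 15.4 times that in leukaemia 1, with bounds of 11.1 and 19.5. Leukaemia 3 exceeded leukaemia 2 by 1.69 times. Among all genes of a library, Ms4a1 was at percentile 59.4 in leukaemia 1, 76.4 in leukaemia 2 and 82.4 in leukaemia 3.

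Leukaemias were compared in pairs over all genes, and a gene is said to differ when log2(FPKM + 1) was at least 1 apart, FPKM reached 1 in either leukaemia and the deposited intervals did not overlap. With 1 library for each leukaemia these differences have no replicate check and no p-value is given. The comparisons with leukaemia 1 share that library. By these criteria 4 members (Ms4a4b, Ms4a4c, Ms4a6b and Ms4a6c) stood higher in leukaemia 1 than in leukaemia 2, and 1 member (Ms4a1) lower, of 7 that reached FPKM 1 in either. Over the 10295 genes tested, 5.56% were higher in leukaemia 1 and 2.6% lower. Against leukaemia 3, the same genes and Ms4a6d were higher in leukaemia 1, 5 of 7 members, and Ms4a1 was again lower. The shares over 10265 genes were 6.75% higher and 3.22% lower. Between leukaemias 2 and 3, 0 of 7 members differed, beside 2.96% of 10047 genes higher in leukaemia 2 and 1.72% higher in leukaemia 3. The counts given below for lists of genes are to be read beside these shares too. Over all 9 members the median difference in log2(FPKM + 1) was 0.62 for leukaemia 1 minus 2, 1.11 for 1 minus 3 and 0.011 for 2 minus 3, beside medians of 0.017, -0.0055 and -0.055 over the genes tested. Ms4a2 and Ms4a3 are included in these medians and were not tested. Over the other 7 members the medians were 1.19, 1.41 and -0.09, with the sign turned for 2 minus 3.

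**Figure D2:**
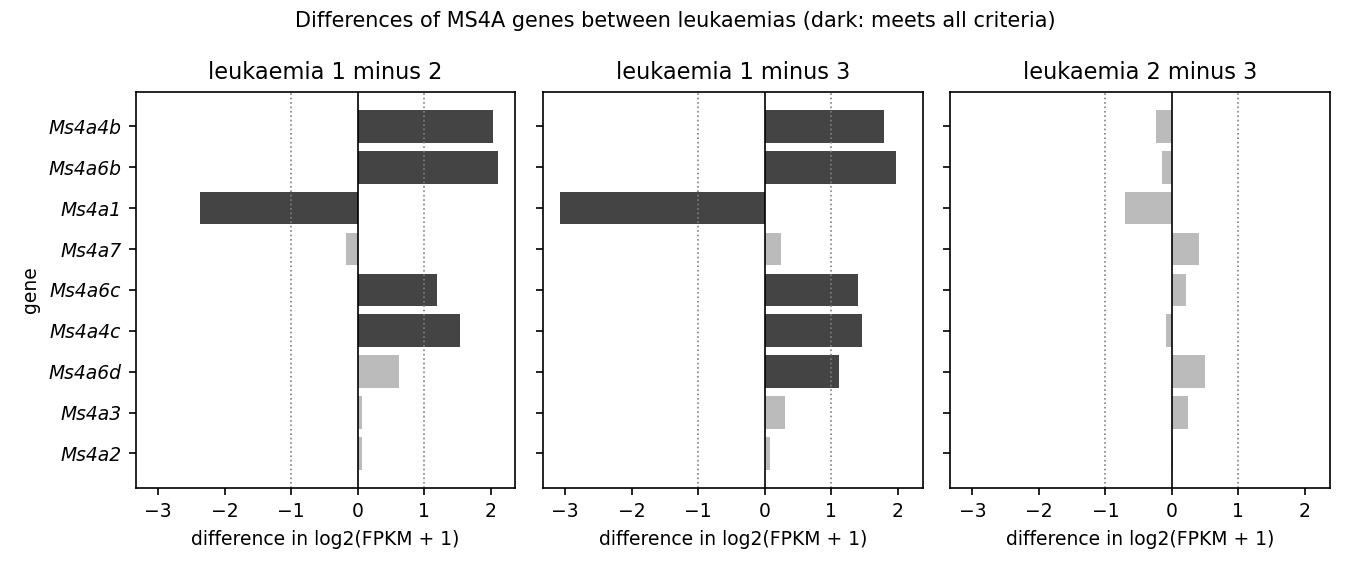
Difference in log2(FPKM + 1) of each MS4A gene between pairs of leukaemias. Dark bars meet all criteria and dotted lines mark differences of 1; Ms4a1 points the other way from Ms4a4b, Ms4a6b, Ms4a6c and Ms4a4c in both comparisons with leukaemia 1, and no bar reaches a dotted line for leukaemia 2 minus 3.

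On the log2(FPKM + 1) scale Ms4a1 differed by -2.38 for leukaemia 1 minus 2, by -3.07 for 1 minus 3 and by -0.70 for 2 minus 3. Of the 268 genes lower in leukaemia 1 than in leukaemia 2, Ms4a1 had the difference of rank 56, and of the 331 genes lower than in leukaemia 3 that of rank 20. Ms4a1 was among the 109 genes, 1.05% of the 10412 tested, that were lower in leukaemia 1 than in both others. The 3 genes whose levels, centred on the mean of the 3 libraries, stayed closest to those of Ms4a1 were H2-Ke6, Tmem223 and Lrrn3, out of 9299 genes compared. Their largest departures from Ms4a1 were 0.19, 0.37 and 0.39 on the log2(FPKM + 1) scale. The closest, H2-Ke6, which encodes a hydroxysteroid dehydrogenase, stood at 5.65, 39.0 and 49.7 FPKM. With 3 libraries this likeness is a description only.

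The summed B lineage markers did not show the spread of CD20, although 2 single markers, Blk and Fcrla, spread more widely. Summed over a list of 12 pan-B genes, led by Cd79a, Cd79b and Cd72, FPKM came to 2963, 2457 and 2080.35 in leukaemias 1, 2 and 3, with no gene of the list at 0. As a share of this sum Ms4a1 was 0.0362%, 0.397% and 0.791%. The highest share was 21.9 times the lowest, while the pan-B sum varied by 1.42 times. Ms4a1 stood at 0.160%, 1.37% and 3.39% of the FPKM of Cd79a, which signals for the B cell receptor and drives Cre in these mice. CD20 was therefore low in leukaemia 1 also relative to Cd79a and to the pan-B sum of the same library.

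Of the 12 pan-B genes, 2 were lower in leukaemia 1 than in leukaemia 2 and 2 were higher, and 1 was lower and 0 higher against leukaemia 3. The gene lower against both was Blk, a Src family kinase of B cells, at 0.727, 33.9 and 22.3 FPKM, lowest in leukaemia 1 as Ms4a1 was. Fcrla, an Fc receptor-like gene of B cells, was high in leukaemia 2 alone, at 5.66, 84.1 and 3.32 FPKM. The genes higher in leukaemia 1 than in leukaemia 2 were Cd22, an inhibitory receptor, and Blnk, an adaptor of B cell receptor signalling. In a list of 11 genes of late pre-B and mature B cells, led by Cd37, H2-Ab1 and Cd74, 3 were higher in leukaemia 1 than in each other leukaemia and 0 were lower. They were H2-Aa and Cd74, of class II antigen presentation, and Ltb, which encodes lymphotoxin beta. The medians of this list were 1.28, 1.32 and 0.657 FPKM, with 1 gene at 0 in each leukaemia. Class II genes and Ltb are also expressed by other cells, and their part in these values was not tested.

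Transcription factors known, mainly from human cells, to act on the CD20 gene were read beside it. All 12 reached an FPKM of 1 in each leukaemia, and 0 of 12 differed in any pair. Over all genes tested, 5.56% were higher and 2.6% lower in leukaemia 1 than in leukaemia 2, and 6.75% and 3.22% against leukaemia 3. For leukaemia 2 against leukaemia 3 they were 2.96% and 1.72%, so 0 of 12 is near these shares. Spi1, the targeted gene, was highest in leukaemia 1, at the levels given above. Its partner factors Irf4 and Irf8 were at 140, 90.2 and 122 and at 146, 207 and 155 FPKM. The octamer factor genes Pou2f1 and Pou2f2 were at 4.46, 4.89 and 4.70 and at 7.10, 8.30 and 7.80, and their B cell coactivator Pou2af1 at 364, 506 and 497. The remaining factors spanned 3.81 FPKM for the ETS factor gene Elk1, in leukaemia 3, to 180 for Ets1, in leukaemia 1. Usf1, Usf2, Sp1 and Foxo1 lay between them, with Foxo1, a regulator of early B cell development, at 28.7, 18.7 and 21.1 FPKM. FPKM of each of these factors moved less between leukaemias than that of Ms4a1. These are RNA levels of the whole thymus, and the part of the factors in the level of Ms4a1 was not tested.

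The T cell members ran the other way. Ms4a4b, which encodes an adaptor associated with the T cell costimulatory receptor GITR, stood at 67.3 FPKM in leukaemia 1, 15.6 in leukaemia 2 and 18.7 in leukaemia 3. Ms4a6b, which encodes a related T cell surface protein, stood at 26.4, 5.34 and 6.00 FPKM. Both were highest in leukaemia 1, where their intervals did not overlap with those of the other libraries. Ms4a4b was 4.31 times as high as in leukaemia 2 (3.78 to 4.84 from the bounds) and 3.60 times as high as in leukaemia 3 (3.16 to 3.97). For Ms4a6b these ratios were 4.95 (4.09 to 5.78) and 4.40 (3.66 to 5.07). The 2 genes kept a similar proportion, with Ms4a6b at 39.3%, 34.2% and 32.1% of Ms4a4b. FPKM of Ms4a4b lay above its own upper bound in each leukaemia, where those bounds were 60.2, 14.7 and 17.6, and that of Ms4a6b in leukaemia 1, where it was 25.2.

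Ms4a4c, of T and myeloid cells, had the same profile at a lower level, with 5.60 FPKM in leukaemia 1, 1.27 in leukaemia 2 and 1.41 in leukaemia 3. It was 4.42 times as high in leukaemia 1 as in leukaemia 2 (3.11 to 6.07) and 3.98 times as high as in leukaemia 3 (2.83 to 5.30). On the log2(FPKM + 1) scale, leukaemia 1 exceeded leukaemias 2 and 3 by 2.04 and 1.79 for Ms4a4b, by 2.11 and 1.97 for Ms4a6b and by 1.54 and 1.45 for Ms4a4c. With Ms4a6c, these genes were among 367, or 3.52% of those tested, whose level in leukaemia 1 exceeded both others. The genes closest to Ms4a4b in profile were Ajuba, which encodes a LIM domain protein, the chemokine gene Ccl4 and Ltb, with largest departures of 0.0049, 0.05 and 0.06 on the log2(FPKM + 1) scale over the 3 libraries.

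T cell markers moved with these members. In a list of 15 T cell genes, led by Lat, Cd3g and Cd2, 13 had a higher level in leukaemia 1 than in leukaemia 2 and 1 a lower one, the transcription factor gene Bcl11b. Against leukaemia 3, 12 were higher and 0 lower. The list summed to 372, 172 and 118 FPKM, and Cd247, which encodes CD3 zeta, was at 12.4 FPKM in leukaemia 1 and listed at 0 in the others. Cd247 is counted among the higher genes in both comparisons, although an exact 0 can be a failed estimate. Relative to Cd3e, which encodes another CD3 chain, Ms4a4b stood at 335%, 444% and 384% and Ms4a6b at 131%, 152% and 123%. These ratios varied by 1.33 and 1.23 times, where the FPKM of Ms4a4b and Ms4a6b varied by 4.31 and 4.95 times. As a share of the summed list Ms4a4b was 18.1%, 9.07% and 15.8%, so the proportion depends on the marker taken. Lat was the largest part of this sum at 169, 113 and 67.8 FPKM, and it did not differ between leukaemias 1 and 2. Bcl11b gave 1.61, 12.7 and 0.378 FPKM. Set against Cd3e, Ms4a4b was lowest in leukaemia 1 and Ms4a6b was between the others there.

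Most NK cell and interferon response genes were also higher in leukaemia 1. Of 10 NK cell genes, led by Gzma, Nkg7 and Gzmb, 7 exceeded their level of leukaemia 2 in leukaemia 1 and 6 that of leukaemia 3, and Gzma was lower in both comparisons. Their sums were 155, 156 and 94.5 FPKM with none at 0, and Gzma alone gave 17.1, 125 and 62.6. Of 12 interferon response genes, Isg15 and Irf7 among them, 8 and 10 were higher in leukaemia 1 and 0 lower, with sums of 561, 261 and 189 FPKM. The part of T cells, NK cells and interferon response in the levels of these MS4A genes was not tested.

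**Figure D3:**
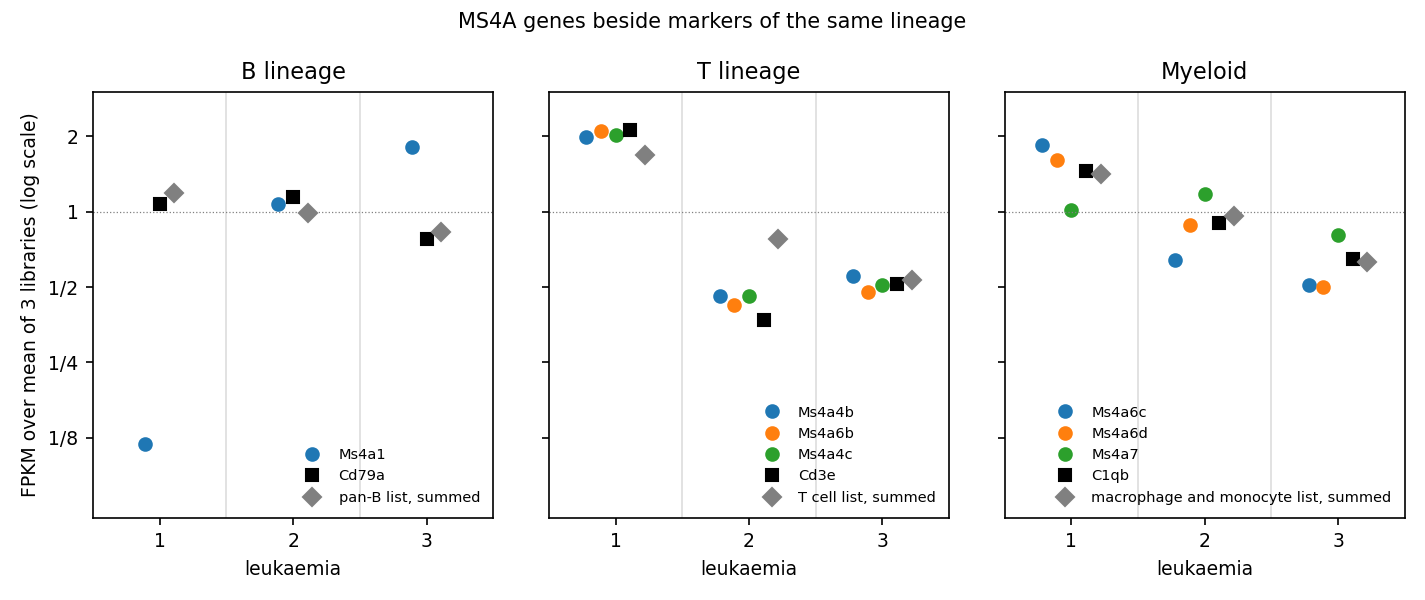
FPKM of MS4A genes (circles), a single marker (squares) and the summed marker list (diamonds) in each leukaemia, divided by the mean of the 3 libraries, on a log scale. Ms4a1 departs from Cd79a and the pan-B sum in leukaemia 1, at 0.118 of its mean, whereas Ms4a4b, Ms4a6b and Ms4a4c lie beside Cd3e. In leukaemia 2 Ms4a4b, Ms4a6b and Ms4a4c stand at 0.461, 0.424 and 0.459 of their means, below the T cell sum at 0.779. Lat is the largest part of that sum.

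The promoters of the 4 members that stood highest in leukaemia 1 by both comparisons are printed because these genes moved together and lie side by side. The sequences are those of RefSeq on GRCm38.p6, from 250 bases before to 50 bases after the gene's start, on the plus strand and written 5′ to 3′. Capitals mark GGAA, the core bound by ETS factors such as PU.1 and Spi-B, on either strand (TTCC on the other strand). The regions are chr19:11407411-11407710 for Ms4a4c, chr19:11443308-11443607 for Ms4a4b, chr19:11469118-11469417 for Ms4a6c and chr19:11518309-11518608 for Ms4a6b.
Ms4a4c: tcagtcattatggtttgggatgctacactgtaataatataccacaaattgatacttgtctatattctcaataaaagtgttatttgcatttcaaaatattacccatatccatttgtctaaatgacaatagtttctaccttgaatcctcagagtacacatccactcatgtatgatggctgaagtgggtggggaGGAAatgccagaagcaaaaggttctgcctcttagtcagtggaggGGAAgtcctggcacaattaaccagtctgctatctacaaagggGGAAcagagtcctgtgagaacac
Ms4a4b: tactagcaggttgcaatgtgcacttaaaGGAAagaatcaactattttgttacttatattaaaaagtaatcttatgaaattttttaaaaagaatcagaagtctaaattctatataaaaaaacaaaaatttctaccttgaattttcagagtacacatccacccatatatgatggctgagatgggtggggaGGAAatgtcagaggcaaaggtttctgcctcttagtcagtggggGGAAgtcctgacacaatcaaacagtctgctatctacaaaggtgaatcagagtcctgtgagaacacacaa
Ms4a6c: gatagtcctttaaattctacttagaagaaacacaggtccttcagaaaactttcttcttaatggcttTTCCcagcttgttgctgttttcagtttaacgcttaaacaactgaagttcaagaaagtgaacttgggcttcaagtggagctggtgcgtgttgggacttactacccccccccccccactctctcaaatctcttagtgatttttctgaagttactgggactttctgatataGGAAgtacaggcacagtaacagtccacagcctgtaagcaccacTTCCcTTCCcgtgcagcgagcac
Ms4a6b: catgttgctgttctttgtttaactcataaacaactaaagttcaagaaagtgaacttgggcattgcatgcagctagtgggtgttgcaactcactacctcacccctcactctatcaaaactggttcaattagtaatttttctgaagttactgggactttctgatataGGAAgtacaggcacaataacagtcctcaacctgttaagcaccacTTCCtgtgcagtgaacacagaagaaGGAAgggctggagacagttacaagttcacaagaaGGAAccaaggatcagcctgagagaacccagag

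The promoters fall into 2 similar pairs. After global alignment those of Ms4a4b and Ms4a4c shared 230 identical bases, or 76.7% of 300, and those of Ms4a6b and Ms4a6c 192, or 64.0%. The next most similar pair, among members with a RefSeq promoter, reached 57.7%. The longest run common to Ms4a6b and Ms4a6c was 48 bases, starting at -118 and at -49 from the gene's start, and it holds a GGAA. Between Ms4a4b and Ms4a4c it was 20 bases, without a GGAA. The printed promoters were chosen because their genes were highest in leukaemia 1, so that both pairs share this profile follows from the choice. A link between likeness of promoters and level was not tested.

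RefSeq promoters were matched for 7 of the 9 members, which gave 8 promoters because Ms4a7 has 2. None was matched for Ms4a1 or Ms4a6d, so the counts below do not cover the CD20 gene. GGAA was found on either strand in 8 of 8, and in 96.0% of all 32851 promoters of this length, so its presence does not set these genes apart. The longer form GAGGAA, which overlaps GGAA and is preferred by PU.1 and Spi-B, was found in 4 of 8, those of Ms4a4b, Ms4a4c and Ms4a3 and 1 of Ms4a7, and in 28.3% of all. In Ms4a4b it starts at -64 and in Ms4a4c at -61, counted from the gene's start. The octamer ATTTGCAT was found in Ms4a4c at -170 (1.74% of all promoters), and the letters TATAAA in Ms4a4b at -140 (13.6% of all). The E-box CACGTG, bound by USF factors, was found in 0 of 8 and in 7.15% of all. A match of letters is a description and does not show binding.

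The monocyte and macrophage members did not share 1 profile. Ms4a6c stood at 6.10 FPKM in leukaemia 1, 2.11 in leukaemia 2 and 1.68 in leukaemia 3, so that leukaemia 1 exceeded both others, by 2.89 times (2.28 to 3.71 from the bounds) and 3.63 times (2.84 to 4.72). Ms4a6d stood at 3.47, 1.91 and 1.07 FPKM and was higher in leukaemia 1 than in leukaemia 3, by 3.24 times (2.09 to 4.86). Its difference of 0.62 on the log2(FPKM + 1) scale against leukaemia 2 did not meet the criteria. Ms4a7, a gene of tissue macrophages, was the most even of the 7 members that reached an FPKM of 1, at 2.99, 3.48 and 2.37 FPKM. Its highest value was 1.47 times its lowest, and its interval in leukaemia 1 overlapped those in both others. Its intervals in leukaemia 2 (3.01 to 3.95) and leukaemia 3 (1.99 to 2.76) did not overlap.

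Macrophage and monocyte markers summed highest in leukaemia 1. Of 15 such genes, led by C1qb, Lyz2 and Ly6c2, 2 were higher in leukaemia 1 than in leukaemia 2, 5 than in leukaemia 3, and 0 were lower in leukaemia 1. The 2 were Ccr2, a chemokine receptor of inflammatory monocytes, at 5.17, 1.39 and 1.69 FPKM, and Ly6c2, their surface marker, at 76.1, 18.4 and 25.8 FPKM. The list summed to 312, 213 and 139 FPKM, with 1 gene at 0 in leukaemia 2 and 1 in leukaemia 3. As a share of this sum Ms4a6c was 1.95%, 0.992% and 1.21%, Ms4a6d 1.11%, 0.896% and 0.769%, and Ms4a7 0.958%, 1.63% and 1.70%. Ms4a7 was thus lowest in leukaemia 1 on this measure, where Ms4a6c and Ms4a6d were highest. Against Ccr2, Ms4a6c stood at 118%, 152% and 99.2%. The part of monocytes and macrophages in these levels was not tested.

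The mast cell and the granulocyte precursor members were near 0. Ms4a2 was listed at 0.0591 FPKM in leukaemia 1 and 0.00748 in leukaemia 2, and at 0 in leukaemia 3. Ms4a3 was listed at 0.237, 0.186 and 0 FPKM. The rows of both genes had the status OK, yet an exact 0 in such tables can be a failed estimate and is not read as absence. Neither gene reached the level needed for a comparison of leukaemias.

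Mast cell and basophil markers were low as well, whereas granulocyte and monocyte progenitor markers were mixed. The 12 mast cell and basophil genes, led by Hdc, Kit and Mcpt8, summed to 3.69, 0.687 and 0.472 FPKM, and 5 were at 0 in leukaemia 2 and 4 in leukaemia 3. Only Hdc, the histidine decarboxylase gene, reached an FPKM of 1, in leukaemia 1, and it was higher there than in both others. Fcer1a, the alpha chain that pairs with the product of Ms4a2, was listed at 0.0580, 0 and 0 FPKM. A list of 8 granulocyte and monocyte progenitor genes was led by Gfi1, Csf2ra and Prtn3. Of them 5, 3 and 6 were under an FPKM of 1 in leukaemias 1, 2 and 3. Elane, the neutrophil elastase gene, stood at 0.554, 1.60 and 0 FPKM. Of these 8 genes 0, 1 and 3 were higher in the first leukaemia of the pairs 1 and 2, 1 and 3, and 2 and 3, and 0 were lower. They summed to 43.1, 48.0 and 30.1 FPKM, mostly from Gfi1 and Csf2ra, which other blood cells also express, and 2 were at 0 in leukaemia 3.

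Neutrophil genes were lowest in leukaemia 3, the library in which Ms4a3 was listed at 0. Of 10 such genes, led by S100a8, S100a9 and Ngp, 6 were higher in leukaemia 1 and 5 in leukaemia 2 than in leukaemia 3, and between leukaemias 1 and 2 1 was higher and 1 lower. Their sums were 253, 206 and 29.4 FPKM, with 0 at 0 in any leukaemia. At the level of Ms4a3 no more than this side by side can be given, and the part of neutrophil precursors was not tested.

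Partners of the IgE receptor stood at higher levels than Ms4a2 and Fcer1a. Fcer1g, the gamma chain that several Fc receptors share, stood at 26.2, 26.4 and 38.7 FPKM. The kinase genes Syk, Lyn and Btk, which act in mast cells and in B cells, stood at 59.7, 41.0 and 41.9, at 32.7, 25.1 and 26.0 and at 13.3, 10.7 and 8.71 FPKM. Among the 9 genes of this list, 1 was higher in leukaemia 1 than in leukaemia 2 and 2 than in leukaemia 3, and 1 was lower than in leukaemia 3. Over all genes tested the shares were 5.56%, 6.75% and 3.22% in the same order. In a list of 9 genes such small counts do not set the list apart. Fcgr4, an activating IgG receptor of myeloid cells, was higher against both at 9.95, 2.53 and 1.87 FPKM, and Fcgr3, a related receptor, against leukaemia 3 at 7.21, 6.51 and 2.99. Lat2, an adaptor of B and mast cells, was lower in leukaemia 1 than in leukaemia 3 at 1.18, 2.13 and 3.75 FPKM. The inhibitory receptor gene Fcgr2b, at 3.93, 7.45 and 2.61 FPKM, was higher in leukaemia 2 than in leukaemia 3.

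Ms4a1 was set against each other member within a library, as 8 differences of log2(FPKM + 1). The test was a two-sided exact permutation test by sign flips, and the smallest p it can give with 3 libraries is 0.25. Ms4a1 lay above Ms4a2 and Ms4a3 in 3 of 3 leukaemias, by means of 2.84 ± 1.66 and 2.68 ± 1.74, and below Ms4a4b in 3 of 3, with a mean difference of -1.95 ± 2.69 (each p = 0.25, adjusted p = 0.571 in this exact test). The distance to Ms4a4b was -5.04 in leukaemia 1, -0.63 in leukaemia 2 and -0.17 in leukaemia 3. Ms4a1 lay below Ms4a6b, Ms4a4c, Ms4a6c, Ms4a6d and Ms4a7 in leukaemia 1 and above each of them in leukaemias 2 and 3. The mean differences from these 5 genes ran from -0.55 ± 2.77 for Ms4a6b to 1.28 ± 2.16 for Ms4a6d, smaller than their SDs, and without leukaemia 1 that from Ms4a6b was 1.04.

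The rest of the family was mostly listed at or near 0. Of 8 more Ms4a genes, 3 of them inside the cluster, 1 gene, Ms4a4a, a macrophage gene, reached an FPKM of 1, at 2.88, 2.12 and 1.10. It did not differ by the criteria in any pair. Ms4a8a stood at 0.816, 0.132 and 0.0860 FPKM and Ms4a4d at 0.216, 0.0528 and 0.0241, highest in leukaemia 1 for both. Ms4a15 was at or below 0.0110 FPKM, and Ms4a5, Ms4a10, Ms4a13 and Ms4a18 were listed at 0 in all 3 leukaemias. The predicted gene Gm8369, between Ms4a6c and Ms4a6b, stood at 1.94, 0.547 and 0.539 FPKM, highest in leukaemia 1 like its neighbours, but at 0.93 and 0.94 above leukaemias 2 and 3 on the log2(FPKM + 1) scale it stayed short of 1. The locus of 4930526L06Rik, on the opposite strand, overlaps Ms4a1 and was listed at 0 in all 3 leukaemias.

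**Figure D4:**
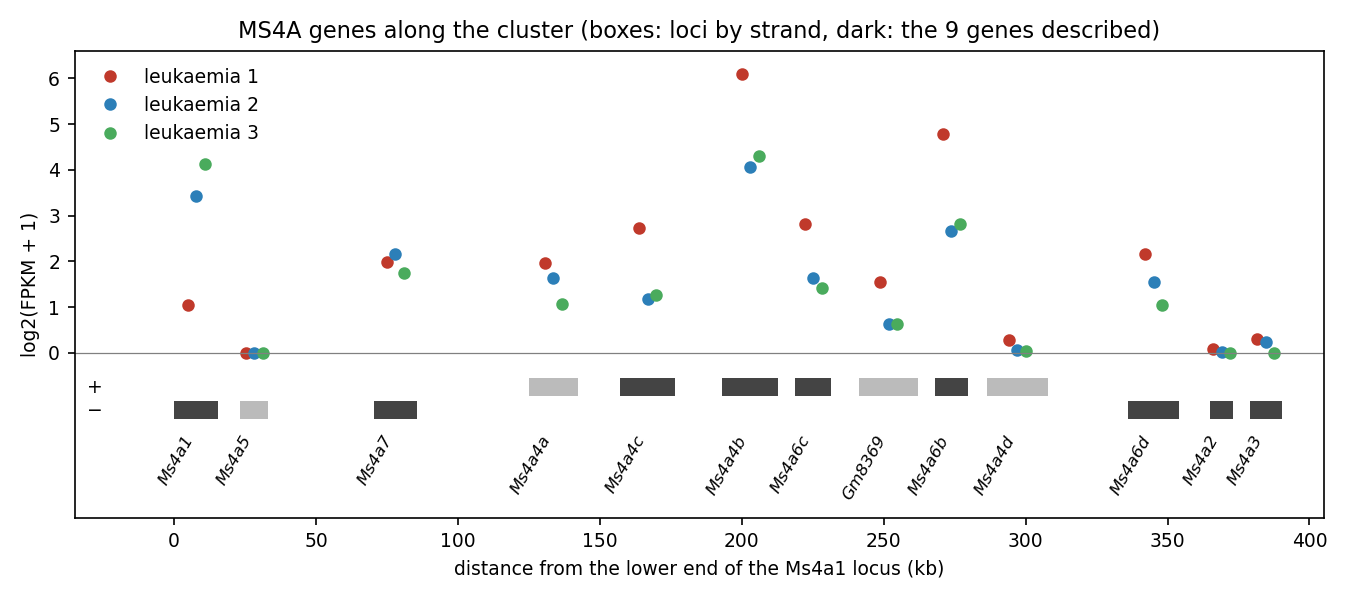
Levels of genes along the MS4A cluster on the log2(FPKM + 1) scale, placed by distance in kb from the lower end of the Ms4a1 locus. Boxes show each locus by strand, dark for the 9 genes described; from Ms4a4c to Ms4a6b the points of leukaemia 1 lie above the others, and at Ms4a1 they lie below.

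The related transmembrane genes Tmem176a and Tmem176b, which lie outside the cluster, were highest in leukaemia 1. Tmem176a stood at 11.7, 2.68 and 2.09 FPKM and Tmem176b at 18.2, 4.91 and 2.79, and for both leukaemia 1 exceeded leukaemias 2 and 3 by the criteria. Of 8 genes of proteins known to act with MS4A proteins, 0 differed in any pair. Over all genes tested, 5.56% were higher and 2.6% lower in leukaemia 1 than in leukaemia 2, and 6.75% and 3.22% against leukaemia 3. For leukaemia 2 against leukaemia 3 the shares were 2.96% and 1.72%. A count of 0 of 8 is near these shares and does not set the genes apart. Tnfrsf18, which encodes GITR, the partner of the Ms4a4b product, was at 7.07, 3.99 and 4.34 FPKM. Cd40, which encodes a costimulatory receptor reported beside CD20 in human B cells, was at 1.28, 0.291 and 0.657.

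Orai1 and Stim1, of the calcium entry pathway that CD20 has been linked to in human cells, were at 5.57, 3.79 and 4.67 and at 24.3, 20.7 and 22.3 FPKM. Clec7a, which encodes the fungal receptor dectin-1, a partner of human MS4A4A, was at 2.38, 4.66 and 2.11, and Trem2, a lipid receptor of macrophages, at 0.825, 2.54 and 1.25. Cdk2 and Cdkn3, the kinase and the phosphatase through which human HTm4 acts on the cell cycle, were at 45.4, 59.3 and 69.0 and at 16.3, 19.3 and 25.5 FPKM. Cdk2 and Cdkn3 are used by all dividing cells and were present where Ms4a3 was near 0.

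Close copies within the family can share reads. In the longest coding transcripts of GENCODE M21, stretches of 50 bases of Ms4a1, Ms4a3 and Ms4a7 were found exactly in no other gene. The share found in other genes was 4.19% for Ms4a4b, in Ms4a4c and Ms4a2, and 8.48% for Ms4a4c, in Ms4a4b and Ms4a4d. It was 5.89% for Ms4a6b and 11.3% for Ms4a6c, which share stretches with each other, and 2.92% for Ms4a6d and 2.69% for Ms4a2. Levels of Ms4a4c and Ms4a6c, beside the more abundant Ms4a4b and Ms4a6b, are therefore less certain than that of Ms4a1.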

How the data were processed

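The submitters' processing notes name TopHat2 2.0.9, Trim Galore 0.2.8.1, Cuffdiff 2.1.1, Cufflinks and the build mm10, without order or settings. The authors deposited 1 table for each leukaemia, with FPKM of every gene and its 95% bounds, per the file headers. The tables hold no counts, the number of fragments is unknown, and no count test was used. For genes at FPKM of at least 1 the median interval reached 5.50%, 5.63% and 5.34% to either side of its midpoint in leukaemias 1, 2 and 3, and the value exceeded its upper bound in 27.1%, 28.1% and 28.4%. Intervals do not cover differences between animals.

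Of 25020 rows per table, 26 with symbols turned into dates were left out, and FPKM was summed over loci of a symbol. All rows of Ms4a genes had the status OK. Starts in the tables were raised by 1 to count from 1, and strands are from GENCODE M21. Differences are on the log2(FPKM + 1) scale, which understates those of low genes. Pair calls used all genes and were tested on simulated data. The simulation held counting noise only, without differences between animals, so it does not show how often calls err in these tables. Named were the 9 members, all other Ms4a genes, genes inside the cluster, the 3 highest genes of each list, short lists in full, and the 3 genes closest in profile to Ms4a1 and Ms4a4b, with 1 gene so named not reported here; marker ratios, genes named because they differed, shared stretches and promoter alignments were chosen after values were seen. Members and lists were chosen with earlier results of these data known. Python 3.11.15, numpy 2.4.6, pandas 2.3.3 and scipy 1.17.1 were used. Alternatives were other pseudocounts, filters, thresholds and scalings, interval midpoints, rows of status OK, and each library left out.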

Additional observations from a re-analysis of the deposited data

How the results depend on the processing

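The counts of members that differed between leukaemias stayed within 1.5 times under 58 of 60 combinations of count and alternative. These include the counts for leukaemia 2 against leukaemia 3, which were 0 throughout, so that a ratio has no meaning for them. When a log2 difference of at least 2 was required, the count higher in leukaemia 1 fell from 4 to 2 (Ms4a4b and Ms4a6b) against leukaemia 2 and from 5 to 0 against leukaemia 3, since that threshold is stricter. Ms4a1 met the criteria in both comparisons under all 10 alternatives, with differences from -3.17 to -2.29 for leukaemia 1 minus 2 and from -3.93 to -2.98 for 1 minus 3. Dropping the low filter and keeping only rows of status OK could not change the call of any member. A difference of 1 in log2(FPKM + 1) already needs an FPKM of 1, and all Ms4a rows had the status OK. Dropping the interval criterion could only add calls. Ms4a6d was also lost against leukaemia 3 with FPKM of at least 5 required. No called member changed direction. Without replicate 1 the mean of Ms4a1 minus Ms4a6b turned from -0.55 to 1.04, and it was -1.48 without replicate 3, the lowest value. Leukaemia 1 also decides the size of Ms4a1 minus Ms4a4b, which was -0.40 without it and -2.83 without leukaemia 3. The differences from Ms4a4c ranged from 0.29 to 2.55, from Ms4a6c from 0.0062 to 2.25, from Ms4a6d from 0.39 to 2.48 and from Ms4a7 from 0.16 to 1.82 with 1 library left out. Those from Ms4a2 ranged from 2.19 to 3.77 and from Ms4a3 from 1.96 to 3.65. No pairing of libraries was possible because they form 1 group, and the sign-flip test paired genes within each library. With 3 libraries that test could not reach a p below 0.25.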
